A study of Mus musculus with 8 samples.

Results

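Mitochondrial fatty acid oxidation is described here through 33 genes of mouse liver, chosen by gene symbol from the 27179 genes of the deposited table. All 33 symbols were found, and all 33 had reads. Liver RNA was sequenced from adult male C57BL/6NHsd mice after a 6 h fast, from 4 wild-type mice and 4 homozygous V227A mice, in which an alanine of PPARɑ replaces a valine. The colony goes back to 1 heterozygous founder made by base editing of zygotes and crossed back to the same strain, so that the V227A allele has a single origin. PPARɑ, encoded by *Ppara*, is the nuclear receptor that switches on fatty acid oxidation genes in fasting liver. The table holds 0 columns of values per library, and only the authors' average log2 CPM over all 8 libraries was used, so every level below is 1 value over both genotypes, with no spread between mice and no test between the genotypes. The mean depth was estimated at 27473997 reads per library, and intervals of estimated reads cover counting error only.

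Fatty acids are first joined to coenzyme A by acyl-CoA synthetases. Long chains then pass into the mitochondrion as carnitine esters, with CPT1 on the outer membrane as the regulated step and malonyl-CoA as its inhibitor. Inside, each turn of the beta-oxidation spiral runs through an acyl-CoA dehydrogenase, a hydratase, a 3-hydroxyacyl-CoA dehydrogenase and a thiolase, and releases acetyl-CoA, which fasting liver uses to make ketone bodies. The electrons taken up by the acyl-CoA dehydrogenases go to the electron transfer flavoprotein, and from it through its oxidoreductase to the respiratory chain.

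The tissue label was checked against marker genes on the same scale, the average log2 CPM (the log2 of counts per 1000000 reads). The 5 hepatocyte markers measured lay between 10.85 for *Cps1* and 16.09 for *Alb*. The 6 skeletal muscle markers lay between -1.90 and 0.15, the 5 heart markers between -3.78 and 0.30, with *Myh6* and *Nppa* at 0 reads, and the 5 adipose markers between -3.61 and -1.63. The 6 Kupffer cell and macrophage markers lay between 2.25 and 6.36, and the 5 B and T cell markers between -1.73 and 1.26. The hepatocyte markers were thus far above those of the other tissues, as the label liver implies, and macrophage RNA was present too. In such bulk RNA, a low level cannot be told apart between few expressing cells and little RNA per cell.

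Most of the pathway was expressed far above the ordinary gene of the liver. The average log2 CPM of the 33 genes had a median of 7.75, while the median of the 18937 genes with reads was 1.89, which is 100.1 estimated reads per library. Of the 33 genes, 31 were above that median gene. In the top 10% of genes by level, which starts at 5.98, lay 24 of the 33 (72.7%), compared with 9.996% of all genes with reads. *Acaa2* (10.15) and *Acsl1* (9.93) were in the top 1%. At the other end, *Cpt1b* (-1.96) and *Ucp3* (-2.87) had fewer than 10 reads per library, as had 31.2% of the genes with reads. The 33 genes together held 0.860% of the summed CPM of the table, and *Acaa2*, *Acsl1*, *Acadvl* and *Etfb* made up 38.4% of what the 33 held.

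**Figure D1:**
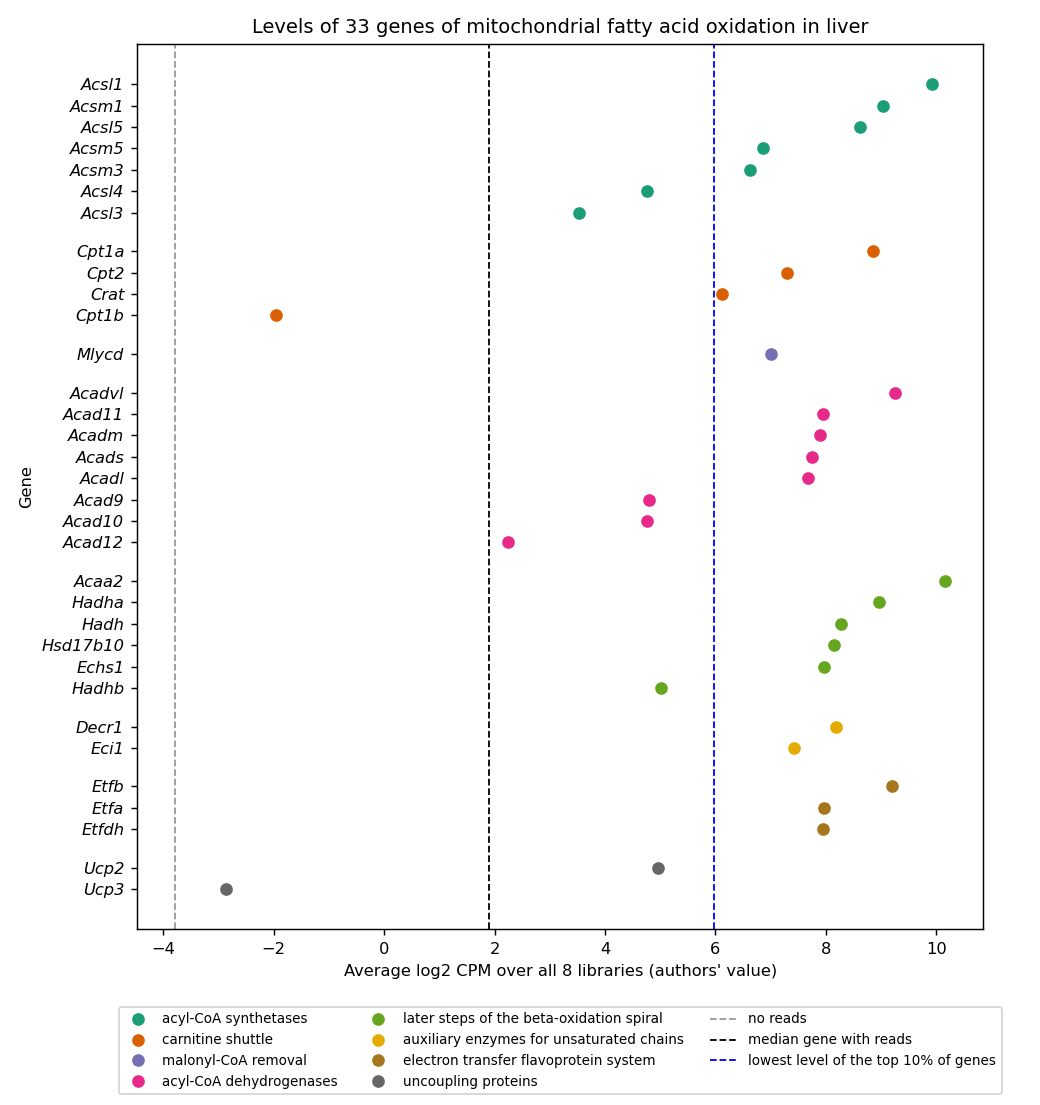
Average log2 CPM over all 8 libraries (x axis, the authors' value) of each of the 33 genes (y axis), coloured by step. Dashed lines mark genes without reads (-3.78), the median gene with reads (1.89) and the start of the top 10% of genes (5.98); only *Cpt1b* and *Ucp3* lie left of the median gene.

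A CPM value grows with the length of a transcript, so levels of different genes were compared as an RPKM computed here, the reads per 1000000 reads and per kb of the longest coding transcript. On this scale 30 of the 33 genes were above the median of 16025 coding genes, which was 1.95, and 22 were in the top 10%. The gene that changed sides was *Acad12*, at an RPKM of 1.21. By step, the later enzymes of the spiral took 34.8% of the summed level per kb of the 33 genes. The electron transfer flavoprotein system took 21.7%, the acyl-CoA dehydrogenases 16.3% and the acyl-CoA synthetases 15.5%. The auxiliary enzymes for unsaturated chains held 5.74%, the carnitine shuttle 4.39%, *Mlycd* 1.39% and the uncoupling proteins 0.180%. These sums cover different numbers of genes, from 1 for *Mlycd* and 4 for the carnitine shuttle to 8 for the dehydrogenases, and leave out carriers that are not among the 33.

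**Figure D2:**
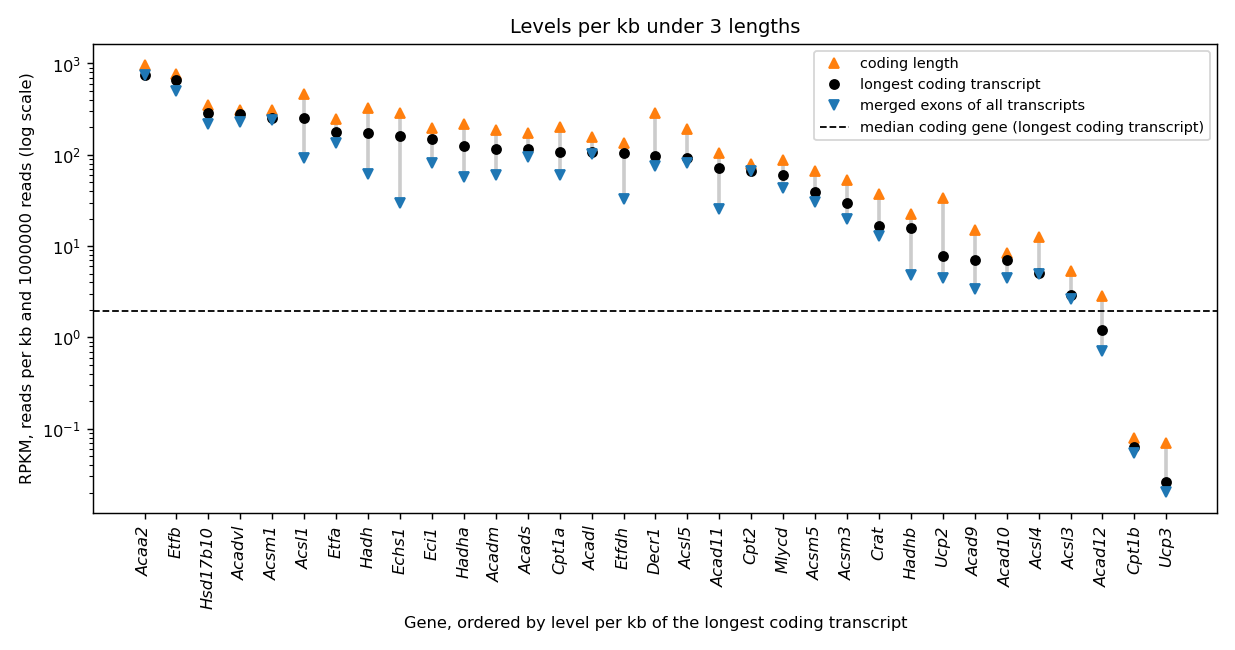
RPKM (reads per 1000000 reads per kb; y axis, log scale) of each gene (x axis, ordered by the level per kb of the longest coding transcript) with 3 lengths: coding length (triangles up), longest coding transcript (circles) and merged exons of all annotated transcripts (triangles down). *Acaa2* and *Etfb* lead and *Cpt1b* and *Ucp3* are last with each length, while *Echs1* and *Decr1* move most in order.

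Among the long-chain acyl-CoA synthetases, *Acsl1*, the main form of liver, had an average log2 CPM of 9.93, and an RPKM of 249 to 251 (95% counting interval). *Acsl5*, which sits on mitochondria and the endoplasmic reticulum, had 8.61, and an RPKM of 92.3. *Acsl4*, which prefers arachidonate, had 4.75, and *Acsl3*, known from the endoplasmic reticulum and lipid droplets, had 3.52. *Acsl1* thus held 71.4% of the summed level per kb of these 4 genes, *Acsl5* 26.4%, *Acsl4* 1.45% and *Acsl3* 0.826%. The order *Acsl1*, *Acsl5*, *Acsl4*, *Acsl3* was the same with coding length and with merged exons. With merged exons *Acsl1* was only 1.15 times *Acsl5*, compared with 2.71 times by the longest transcript. The RPKM of *Acsl1* itself was 464.7 by coding length and 92.95 by merged exons, both outside its counting interval.

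The 3 medium-chain synthetases of the ACSM family among the 33 genes, enzymes of the mitochondrial matrix, lie close to each other on mouse chromosome 7. *Acsm1* reached an average log2 CPM of 9.04, *Acsm5* 6.85 and *Acsm3* 6.62. Their RPKM values were 252.3, 38.8 and 29.9 in that order, so that *Acsm1* held 78.6% of the sum of these 3. Of the other ACSM genes, *Acsm2* had an average log2 CPM of 1.28 and *Acsm4* -3.69. *Acsm5* and *Acsm1* are 61474 bases apart and *Acsm1* and *Acsm3* 98407 bases apart, all on the plus strand. Per kb *Acsm1* and *Acsl1* had nearly the same level, with a ratio of 1.01. That order depended on the length used: *Acsm1* had 0.658 times the level of *Acsl1* by coding length and 2.59 times by merged exons.

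In the carnitine shuttle, *Cpt1a*, the liver form of CPT1 on the outer membrane, had an average log2 CPM of 8.85, and an RPKM of 107.1. *Cpt2*, which turns the carnitine ester back into acyl-CoA on the inner membrane, had 7.30, and an RPKM of 66.5. *Crat*, which moves short acyl groups such as acetyl between coenzyme A and carnitine, had 6.12, and an RPKM of 16.4. By merged exons *Cpt1a* was 0.917 times *Cpt2*, so their order was not fixed by these data. *Slc25a20*, the carrier that brings acylcarnitine through the inner membrane, had an average log2 CPM of 7.51, and the carnitine uptake transporter *Slc22a5* 5.11. The mRNA of every enzyme and carrier of this route was thus detected.

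*Cpt1b*, the muscle form of CPT1, was the opposite of *Cpt1a*. It had a total of 40 estimated reads in the 8 libraries (95% Poisson interval 28.6 to 54.5), against 101639 for *Cpt1a*. Per kb the level of *Cpt1a* was 1684 times that of *Cpt1b* (95% counting interval 1251 to 2385), and 2508 times by coding length and 1108 times by merged exons, although their coding sequences were 66.9% identical over 2299 aligned bases. The skeletal muscle markers *Ckm* (-1.41) and *Acta1* (-0.40) and the heart marker *Tnnt2* (0.30) were at low levels too, and their part in the *Cpt1b* reads was not tested. *Cpt1c*, the form of neurons, had an average log2 CPM of -0.59. The *Cpt1b* gene (chr15:89416405-89425863, minus strand) is covered along its whole length by the overlapping gene *Gm44502*, which shared 93.0% of the 50-base stretches of the *Cpt1b* transcript and was listed with 0 reads. How reads in such an overlap were assigned is not given in the sources used here, so the level of *Cpt1b* is uncertain.

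*Mlycd*, which removes the CPT1 inhibitor malonyl-CoA, had an average log2 CPM of 7.003, and an RPKM of 60.2. The acetyl-CoA carboxylases that make malonyl-CoA were also expressed, with an average log2 CPM of 6.72 for *Acacb*, the form at the mitochondrion, and 5.40 for *Acaca*, the form of the cytosol. All 3 genes of malonyl-CoA turnover thus lay above the 85th percentile of genes with reads.

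Among the acyl-CoA dehydrogenases, the 4 classical enzymes of the spiral were all high. *Acadvl*, for very long chains, led with an average log2 CPM of 9.24, and an RPKM of 279.7. *Acadm*, for medium chains, had 7.89 and an RPKM of 116.0, *Acads*, for short chains, 7.75 and an RPKM of 115.2, and *Acadl*, for long chains, 7.68 and an RPKM of 106.8. *Acadvl* thus had 2.41 times the level per kb of the next member, 1.64 times by coding length and 2.21 times by merged exons. By the longest transcript *Acadm* and *Acads* did not differ beyond counting error, with a ratio per kb of 1.01 (95% counting interval 0.994 to 1.02). That ratio was 1.08 by coding length and 0.639 by merged exons, so it depended on the length used. Of the *Acadvl* transcript, 24.0% of the 50-base stretches were also found in transcripts of its neighbour *Dvl2*.

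The other 4 dehydrogenases were spread over a wider range. *Acad11* had an average log2 CPM of 7.95, beside the classical enzymes, and an RPKM of 71.7. *Acad9*, best known as an assembly factor of respiratory complex I, had 4.80, and *Acad10* had 4.76. *Acad12* was lowest, with 2.25, and held 0.171% of the level per kb of the 8 dehydrogenases, of which *Acadvl* held 39.7%.

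*Acad10* and *Acad12* are neighbours on chromosome 5, 2087 bases apart on the minus strand, at chr5:121621026-121660514 and chr5:121596775-121618938. Their coding sequences were 96.8% identical over 1665 aligned bases, while the 28 pairs of dehydrogenases had a median identity of 58.3%. The longest stretch common to both transcripts was 195 bases, and 20.4% of the 50-base stretches of *Acad10* were also in *Acad12*. Per kb *Acad10* was 5.84 times *Acad12* (95% counting interval 5.47 to 6.25), and 2.99 times by coding length. Reads from the common stretches can be counted for either gene or for neither, so both levels are uncertain.

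The later steps of the spiral held the highest gene of the whole pathway. *Acaa2*, the mitochondrial 3-ketoacyl-CoA thiolase, had an average log2 CPM of 10.15, which was rank 114 of the genes with reads. Its RPKM was 750.5, which was 2.61 times the next member of its step. That next member was *Hsd17b10*, a 3-hydroxyacyl-CoA dehydrogenase that is also part of mitochondrial RNase P, with an average log2 CPM of 8.16 and an RPKM of 287.3. *Hadh*, the dehydrogenase for short and medium chains, had 8.27 and an RPKM of 172.0. *Echs1*, the short-chain enoyl-CoA hydratase, had 7.96 and an RPKM of 159.6 by the longest transcript, but 30.0 by merged exons.

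The trifunctional protein, which carries the last 3 reactions of the spiral for long chains, is built of alpha subunits from *Hadha* and beta subunits from *Hadhb*. Their mRNA levels were far apart. *Hadha* had an average log2 CPM of 8.96, and an RPKM of 124.2, while *Hadhb* had 5.01, and an RPKM of 15.7. The ratio per kb was 7.92 (95% counting interval 7.73 to 8.12), 9.67 by coding length and 11.7 by merged exons. *Hadhb* was the lowest of the 6 genes of its step with each of the 3 lengths, and the other thiolase, *Acaa2*, was 47.9 times higher per kb, and 154.1 times by merged exons.

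*Hadha* and *Hadhb* start back to back on chromosome 5, *Hadha* on the minus strand (chr5:30118304-30155162) and *Hadhb* on the plus strand (chr5:30155248-30184593), with 85 bases between the genes in GENCODE. The RefSeq start sites are 272 bases apart. Of the 300 bases of RefSeq's promoter window (250 before and 50 after a start site), 228 belong to the windows of both genes. The window of *Hadhb* (chr5:30155003-30155302, plus strand, GRCm38.p6) is shown because most of it also belongs to the window of *Hadha*, a gene of unequal estimated level. It was chosen after the levels were seen. The RefSeq start site of *Hadha* lies just outside this window, while its GENCODE start lies inside it. Capitals mark the bases shared with the window of *Hadha*.
*Hadhb* promoter: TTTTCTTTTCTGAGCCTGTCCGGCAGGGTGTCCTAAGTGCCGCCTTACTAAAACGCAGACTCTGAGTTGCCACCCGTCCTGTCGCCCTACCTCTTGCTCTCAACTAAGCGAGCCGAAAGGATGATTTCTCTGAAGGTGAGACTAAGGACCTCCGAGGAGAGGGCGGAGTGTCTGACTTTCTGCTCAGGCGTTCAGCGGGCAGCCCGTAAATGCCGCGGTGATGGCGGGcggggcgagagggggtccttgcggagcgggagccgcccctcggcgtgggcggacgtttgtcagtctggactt

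*Hadhb* also has near copies elsewhere in the genome. The processed pseudogene *Gm13910* on chromosome 2 (chr2:108948806-108950233, plus strand) differed from the 1425 coding bases of *Hadhb* at 3 positions, an identity of 99.8%. Counted from 1 at the first coding base, with the base of *Hadhb* first, the differences were G201A, A393G and G743A. Of the 50-base stretches of the *Hadhb* transcript, 61.5% were also found in *Gm13910* and 15.4% in a further processed pseudogene, *Gm9108* on chromosome 15. RefSeq gives the copy on chromosome 2 a longer span, chr2:108948770-108950728, so the share found there may be too low. For comparison, 0.655% of the stretches of *Hadha* were found in another gene. A stretch of both sequences is shown, coding positions 177 to 416 of *Hadhb* and chr2:108948982-108949221 of the pseudogene. Its bases are the same in both places except at the differences, which are in capitals. A read within it can match both places, and whether its mate or an exon junction told them apart is unknown.
*Hadhb*: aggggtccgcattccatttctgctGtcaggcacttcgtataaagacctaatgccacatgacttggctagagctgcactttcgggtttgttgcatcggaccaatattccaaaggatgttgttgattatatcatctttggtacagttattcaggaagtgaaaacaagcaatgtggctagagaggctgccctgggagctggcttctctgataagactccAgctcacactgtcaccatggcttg
*Gm13910*: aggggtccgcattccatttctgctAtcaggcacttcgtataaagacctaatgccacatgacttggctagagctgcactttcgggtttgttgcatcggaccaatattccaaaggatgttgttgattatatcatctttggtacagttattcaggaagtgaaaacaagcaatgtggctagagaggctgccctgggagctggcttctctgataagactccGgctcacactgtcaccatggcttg
How reads that match 2 places were counted is not given in the sources used here. The level of *Hadhb* is therefore uncertain, and the part of the pseudogene in it was not tested.

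Of the 33 genes, 17 had at least 1 such 50-base stretch in common with a transcript of another gene, and 9 had over 10%. The same shares were not computed over all genes, so whether these counts are unusual is unknown. They pool genes overlapping at the same place, as for *Cpt1b*, *Etfb* and *Acsm3*, with copies elsewhere, as for *Hadhb* and *Acad10*. After *Cpt1b*, the largest shares were those of *Etfb*, with 67.3% in the overlapping gene *Gm45233*, of *Hadhb*, with 62.4% in all, and of *Acsm3*, with 35.2% in *Eri2*. The average log2 CPM was -1.96 for *Cpt1b*, 9.20 for *Etfb*, 5.01 for *Hadhb* and 6.62 for *Acsm3*. Whether shared stretches affected these levels was not tested. The other 16 genes, among them *Acaa2*, *Acsl1* and *Cpt1a*, had 0 stretches shared with annotated transcripts. Copies outside annotated transcripts were not searched for. *Gm45233* lies at the same place as *Etfb* on the same strand and was not matched to a row of the table. *Eri2* lies on the strand opposite to *Acsm3*, and *Dvl2* on that opposite to *Acadvl*, and whether the counting used strand is not given in the sources used here.

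**Figure D3:**
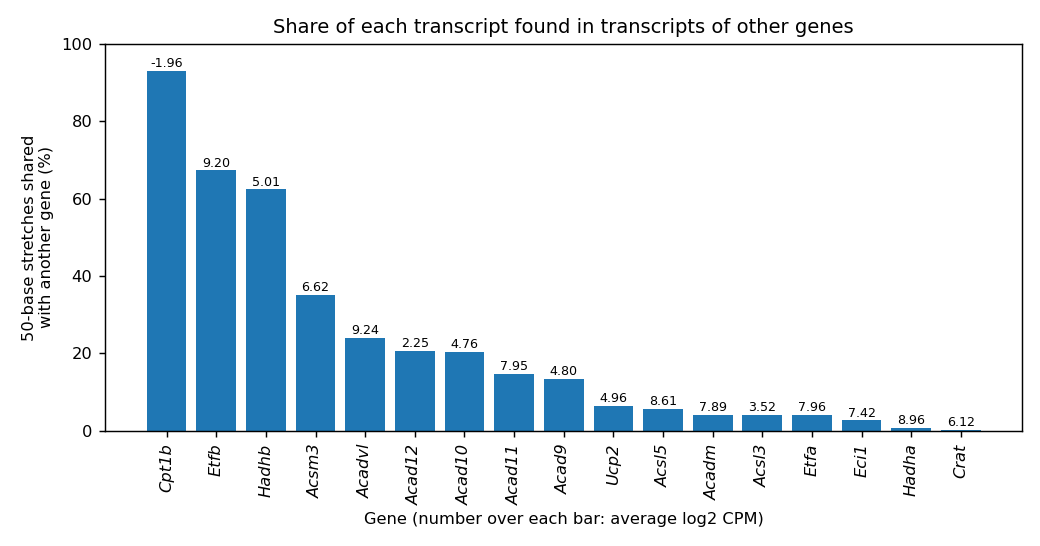
Share of the 50-base stretches of each longest coding transcript (y axis, percent) that were also found in a transcript of another gene, for the 17 genes (x axis) with any; the number over each bar is the gene's average log2 CPM. *Cpt1b* (93.0%), *Etfb* (67.3%) and *Hadhb* (62.4%) stand above the others, with levels of -1.96, 9.20 and 5.01.

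Unsaturated chains need auxiliary enzymes that move or remove a double bond before the spiral can go on. *Eci1*, an enoyl-CoA isomerase, had an average log2 CPM of 7.42 and an RPKM of 150.7. *Decr1*, the 2,4-dienoyl-CoA reductase, had 8.18 and an RPKM of 98.0. Their order depended on the length: *Eci1* was 1.54 times *Decr1* by the longest transcript, 1.08 times by merged exons and 0.685 times by coding length.

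The genes of electron transfer were high throughout. *Etfb*, the beta subunit of the electron transfer flavoprotein, had an average log2 CPM of 9.20, and an RPKM of 657.9, second only to *Acaa2* among the 33. *Etfa*, the alpha subunit, had 7.96 and an RPKM of 179.2, and *Etfdh*, the oxidoreductase that passes the electrons to ubiquinone, had 7.94 and an RPKM of 103.6. The flavoprotein holds 1 subunit of each kind, yet *Etfb* was 3.67 times *Etfa* per kb (95% counting interval 3.64 to 3.71), 3.08 times by coding length and 3.71 times by merged exons. In reads alone *Etfb* was 2.36 times *Etfa*.

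Of the uncoupling proteins, *Ucp2*, a carrier of the inner membrane that is well known from macrophages, had an average log2 CPM of 4.96, and an RPKM of 7.79. *Ucp3*, the form of skeletal muscle and brown fat, had 14 estimated reads in all 8 libraries (95% Poisson interval 7.7 to 23.5), and *Ucp1*, of brown fat, 11. *Ucp2* and *Ucp3* are 6904 bases apart on chromosome 7, both on the plus strand, with coding sequences 75.2% identical, and per kb they differed 297.5 times (95% counting interval 178.3 to 547.8), and 482.9 times by coding length. The level of *Ucp3* rests on the prior count, since the estimate was 1.76 reads per library with it subtracted and 3.76 without, so the fold is uncertain beyond its interval. Of the 6 Kupffer cell and macrophage markers, *Clec4f* (6.36) and *C1qa* (5.004) were above *Ucp2*, and *Csf1r* (4.65), *Vsig4* (3.87), *Cd68* (2.73) and *Adgre1* (2.25) were below it. Their part in its level was not tested.

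The 6 pairs of ACSL genes were 51.9% to 66.6% identical over aligned coding bases, and *Acsl3* had an RPKM of 2.89, far below *Acsl1*. The 3 ACSM pairs were 59.9% to 63.3% identical. *Acsl3* and *Acsl4*, the pair most alike (66.6%), were also the lowest 2 of their family.

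PPARɑ acts as a heterodimer with RXR on a direct repeat known as DR1, 2 copies of AGGTCA in a row with 1 free base between them. RefSeq promoter windows were found for 28 of the 33 genes, all but *Acaa2*, *Acad9*, *Cpt1b*, *Crat* and *Decr1*, and both strands were searched. The repeated letters are also part of other direct repeats. With 0 or 1 mismatch in the 12 fixed letters, 0 of the 28 genes had a match, compared with 0.644% of 27025 genes with up to 1 mismatch. With up to 2 mismatches, 3 of 28 genes (10.7%) had a match, compared with 4.40% of all genes. With up to 3 mismatches the shares were 42.9% and 27.3%, and member windows were richer in G and C, with a median of 60.7% compared with 52.7%.

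The 3 promoters with the best match are shown, from 250 bases before to 50 after the start site on the gene's own strand of GRCm38.p6, with the 13 letters of the match in capitals. They lie at chr7:140116372-140116671 (minus strand) for *Echs1*, chr9:55512194-55512493 (minus strand) for *Etfa* and chr7:100472741-100473040 (plus strand) for *Ucp3*.
*Echs1*: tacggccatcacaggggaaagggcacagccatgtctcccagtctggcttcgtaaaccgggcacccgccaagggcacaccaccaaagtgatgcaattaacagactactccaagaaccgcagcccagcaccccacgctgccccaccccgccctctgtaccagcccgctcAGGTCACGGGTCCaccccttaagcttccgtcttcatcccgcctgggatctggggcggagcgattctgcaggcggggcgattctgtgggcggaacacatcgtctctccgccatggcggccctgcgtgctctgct
*Etfa*: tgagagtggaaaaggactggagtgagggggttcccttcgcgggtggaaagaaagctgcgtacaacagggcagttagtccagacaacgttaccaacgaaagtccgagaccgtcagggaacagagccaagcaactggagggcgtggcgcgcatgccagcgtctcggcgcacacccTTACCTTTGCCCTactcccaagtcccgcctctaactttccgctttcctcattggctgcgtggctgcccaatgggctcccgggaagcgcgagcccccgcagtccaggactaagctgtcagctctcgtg
*Ucp3*: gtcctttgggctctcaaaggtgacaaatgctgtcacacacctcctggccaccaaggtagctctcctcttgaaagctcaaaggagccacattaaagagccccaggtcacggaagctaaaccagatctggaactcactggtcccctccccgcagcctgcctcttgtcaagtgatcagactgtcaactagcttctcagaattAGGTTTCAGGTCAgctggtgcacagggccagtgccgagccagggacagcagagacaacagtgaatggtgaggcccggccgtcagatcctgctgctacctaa
The match of *Etfa* reads as DR1 on the other strand. The matches began 83, 77 and 51 bases before the start site. *Echs1* and *Etfa* had almost the same average log2 CPM, 7.96, while *Ucp3* was the lowest of the 33 genes at -2.87, so matches of this kind were found in genes of high and of very low level. These are matches of letters and say nothing of binding.

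Beside the 33 genes, 9 genes of peroxisomal oxidation, the route for very long chains, were all in the top 10%. Their average log2 CPM had a median of 8.58, from 7.64 for *Acox2*, an oxidase of branched chains, to 10.24 for *Acaa1b*, a peroxisomal thiolase. A list of 24 other genes of fatty acid oxidation and its control had a median of 5.66, with 11 in the top 10%. In it *Eci2*, a second enoyl-CoA isomerase, had 8.34, *Ppara* itself 8.37 and the coactivator *Ppargc1a* 2.80. The lowest of the list were *Acsm4* (-3.69), *Ucp1* (-3.02), *Acss1* (-1.95), *Acsl6* (-1.58), *Acot10* (-1.47) and *Cpt1c* (-0.59).

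**Figure D4:**
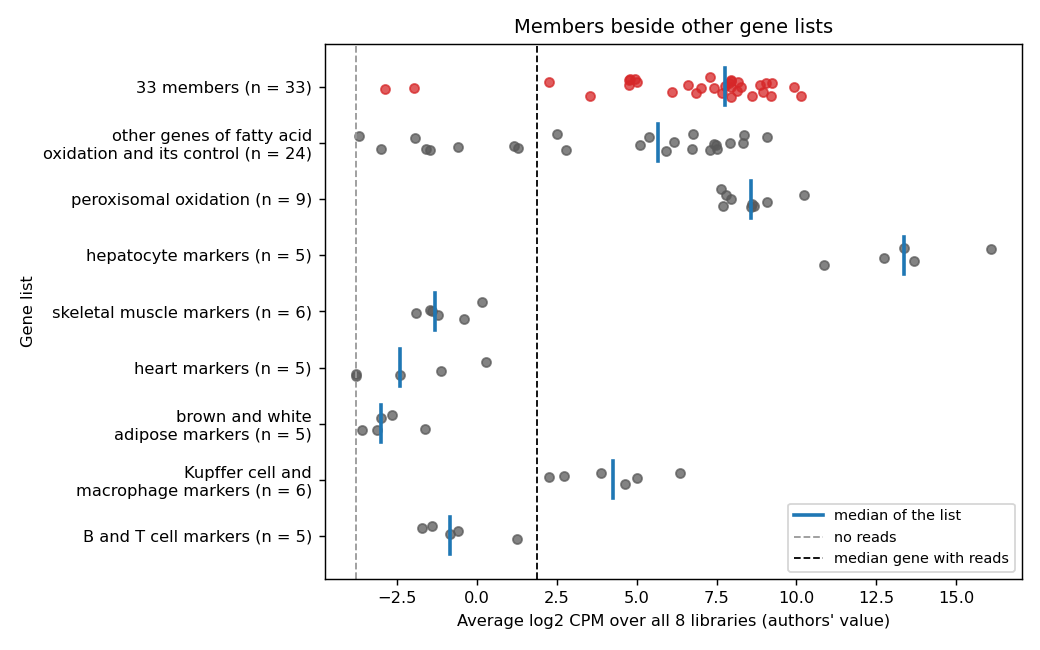
Average log2 CPM over all 8 libraries (x axis) of the 33 genes and of 8 other gene lists (y axis, 1 point per gene; the vertical position within a list carries no value). The blue bars are list medians: 7.75 for the 33 genes, 8.58 for peroxisomal oxidation and 13.37 for hepatocyte markers, while the muscle, heart, adipose and B and T cell markers lie below the median gene with reads (1.89).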

How the data were processed

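Poly-A RNA of 8 livers was made into stranded libraries and sequenced in pairs. Per the labels and the study's methods, reads were trimmed (Trimmomatic), checked (FastQC), aligned to GRCm38/mm10 (STAR), counted on genes (featureCounts) and compared between the genotypes (edgeR). Versions, annotation, strand setting and the handling of reads in overlaps or with several matches are not given in the sources used here.

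The deposited table has 27179 genes. The authors' average log2 CPM over all 8 libraries was the only column of values used. The table's 4 other columns hold the authors' own comparison of the genotypes (log2 fold change, F, p-value and FDR) and were not used, and it has 0 columns of values per library. The planned test between genotypes could therefore not be run, and no SD exists.

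Genes at the lowest value, -3.78 (8242 genes), were taken as without reads. This floor and a prior count of 2 give a mean depth of 27473997 reads per library, each library's own depth being unknown. As a check, 99.9% of the 2378 genes with about 1 to 5 reads in all came out whole to within 0.1. Poisson intervals of totals (95%) and exact binomial intervals of ratios cover counting error only, not the spread between mice.

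Lengths came from GENCODE vM21 (GRCm38): the longest coding transcript, with coding length and merged exons as alternatives. The 33 genes were matched by Ensembl ID and symbol. Identities are of global alignments of coding bases (Biopython 1.88), used because proteins were not analysed here. Transcripts were cut into 50-base stretches and looked up in all GENCODE transcripts. Promoter windows came from RefSeq (GRCm38.p6). Python 3.11.15, pandas 2.3.3, numpy 2.4.6, scipy 1.17.1 and matplotlib 3.10.9 were used. The estimates were tested on simulated data made with the same prior count. That test scored only genes with more reads than *Cpt1b* and *Ucp3* had. The named genes are all 33 members and genes of fixed lists, and 6 genes named after their shared stretches were seen (*Gm44502*, *Gm13910*, *Gm9108*, *Gm45233*, *Dvl2* and *Eri2*). The members, steps and lists were chosen with earlier results of these data known. The hepatocyte marker *Tf* was not matched to a row. A further gene of the peroxisomal list is not reported here.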

Additional observations from a re-analysis of the deposited data

How the results depend on the processing

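The count of genes above the median gene was 31, and 29 when only the 11711 genes with an average log2 CPM of at least 0 formed the background. The leading gene of a step kept its place in 5 of 7 steps with no length scaling, in 5 by coding length and in 6 by merged exon length, the last chosen after the data were seen. *Acsm1* over *Acsl1* turned from 1.01 to 0.539 with no length scaling and 0.658 by coding length. *Eci1* over *Decr1* turned from 1.54 to 0.591 and 0.685, and *Cpt1a* over *Cpt2* from 1.61 to 0.917 by merged exon length. The leading gene of all 5 families stayed the same by coding length and with no prior count subtracted. Without that subtraction, estimated reads left their counting interval for 2 of 33 genes, *Cpt1b* (from 5.06 to 7.06 per library) and *Ucp3* (from 1.76 to 3.76). The RPKM left its counting interval for 32 of 33 genes by coding length and for 28 by merged exon length. Of the 5 highest genes per kb, 3 were in the top 5 by coding length and 5 by merged exon length. The largest shifts in order were 9 places (*Decr1*) by coding length and 12 places (*Echs1*) by merged exon length.

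No paired analysis was possible because the table holds 0 columns per library. For the same reason the runs intended on counts per library (DESeq2, no filter, each replicate left out, the replicate block) were not made. Depth limits only *Cpt1b* and *Ucp3*, whose totals were 40 and 14 reads. Levels carry no spread between mice, and lengths are those of the annotation.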
